A study of Mus musculus with 12 samples.

Results

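The 50 genes described here encode the extracellular matrix and basement membranes of the mouse kidney, with the enzymes that cross-link the matrix, the proteases and inhibitors that turn it over and 2 signals that induce it. They were taken by symbol from a table of read counts over 46882 gene names, all 50 were found, and all 50 had enough counts to be among the 16910 genes tested. RNA came from the whole kidneys of mice of the C57BL/6 strain, 6 to 8 weeks old, 6 of them wild type (WT) and 6 homozygous for loss of A1cf (A1cf -/-, called A1cf KO below), with no treatment named. The A1cf protein binds RNA and is known as a cofactor of the cytidine deaminase APOBEC1. How the A1cf allele was made, and in which cells it acts, is not given in the sources used here. Kidneys were flash frozen, so each value is an average over all cells of the organ, and fewer cells of a type and less RNA per cell cannot be told apart.

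The animals' numbers fall into 2 series. Below 700 are 3 WT animals (573, 590 and 601) and 5 A1cf KO animals (574, 584, 588, 591 and 602). Above 700 are 3 WT animals (776, 777 and 778) and 1 A1cf KO animal (780). The labels do not say what the series are. Because they are uneven between genotypes, genotype was tested without and with the series as a covariate, and the series difference is given in its own right.

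Libraries held 26671705 to 52899139 counts. As a check of the labels, A1cf averaged 54.5 CPM over the WT libraries (SD 7.39, n = 6) and 4.11 CPM over the A1cf KO libraries (SD 1.07, n = 6), CPM being counts per 1000000 on TMM-scaled library sizes, and every library matched its genotype label. Markers of the proximal tubule (Lrp2, Slc34a1), the loop of Henle (Umod) and podocytes (Nphs1) were present in all 12 libraries. Transcripts of fat, which surrounds the kidney and fills its sinus, were very uneven: the summed level of 7 adipocyte markers ran from 0.834 CPM in A1cf KO 588 to 418 CPM in A1cf KO 602, with 312 CPM in WT 777. The sum of 7 urothelial markers was 62.5 CPM in WT 777 and 2.89 to 20.4 CPM in the others.

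Basement membranes are thin sheets under epithelia and around vessels, built from networks of laminin and collagen IV that are joined by nidogens and the heparan sulfate proteoglycans perlecan and agrin. The filtering membrane of the glomerulus is a specialised one, in which the collagen IV chains made by Col4a3, Col4a4 and Col4a5 and the laminin chains made by Lama5, Lamb2 and Lamc1 predominate. The space between tubules holds a different matrix of fibrillar collagens, fibronectin, elastic fibres and small proteoglycans, made mainly by fibroblasts and pericytes, and this interstitial matrix expands in kidney fibrosis.

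Levels of different genes were compared per length, as RPKM (counts per kilobase of counted exons per 1000000 TMM-scaled counts). Timp3, an inhibitor of matrix metalloproteinases that binds to the matrix, had the highest level at 115 ± 23.3 RPKM (SD, n = 12) and a range of 80.9 to 160 RPKM that did not overlap that of any other member. Exons of Syn3 overlap 21.3% of its counted exon bases, and the counting used no strand option. Whether reads there were counted, and for which gene, was not examined. Next came Dcn (decorin, a collagen-binding proteoglycan) at 32.9 ± 12.3 RPKM, Sparc at 25.7 ± 4.79 RPKM, Col4a1 at 25.7 ± 4.16 RPKM, Ctgf at 24.4 ± 7.62 RPKM and Col4a4 at 24.2 ± 2.85 RPKM. From Dcn downwards the range over libraries overlapped that of the next gene in the order at every step. At the low end were Col4a6 at 0.42 RPKM, the laminin chain Lama4 at 0.48 RPKM, Timp1 at 0.586 RPKM and Postn at 0.759 RPKM.

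Of the 8 laminin chains, Lama5 was highest (15.6 ± 1.69 RPKM), before Lamb1 (14.6 ± 1.145 RPKM) and Lamb2 (10.4 ± 1.64 RPKM). Agrin (Agrn, 19.8 ± 1.501 RPKM) and nephronectin (Npnt, 21.3 ± 2.15 RPKM), the ligand of integrin alpha 8 beta 1 in the developing kidney, led the group of nidogens and proteoglycans, and Col18a1 (23.0 ± 1.34 RPKM) led the collagens VI, XV and XVIII. Lower in the order were Lama1 (3.42 RPKM), Lama3 (2.80 RPKM), Col15a1 (1.49 RPKM) and Lama2 (0.856 RPKM). The fibrillar collagens ran from 1.00 RPKM for Col5a1 to 2.95 RPKM for Col1a2, and the highest of the cross-linking enzymes was Pxdn at 3.59 RPKM.

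**Figure D1:**
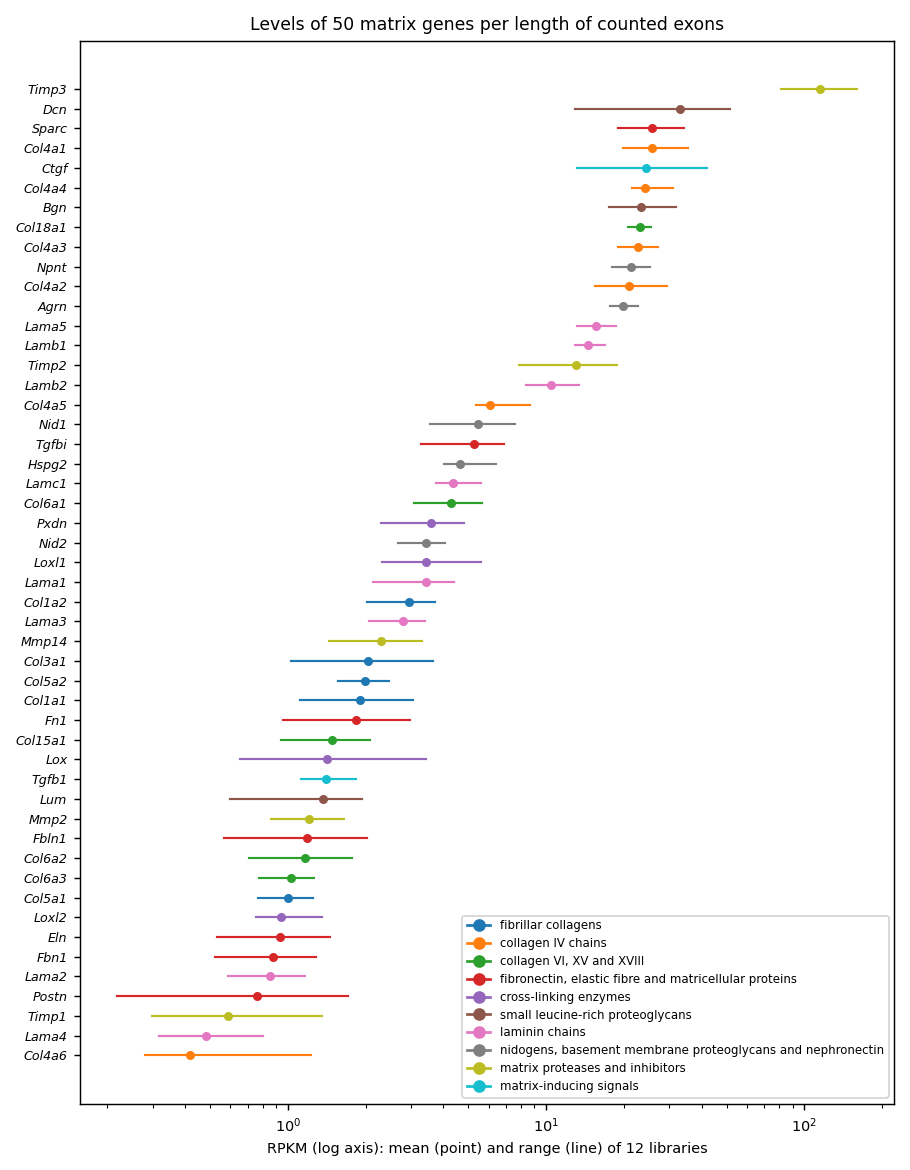
Level of each of the 50 genes in RPKM (x axis, log scale), as the mean (point) and range (line) over 12 kidney libraries, coloured by role. Timp3 stands apart at 80.9 to 160 RPKM, and Col4a6 has the lowest mean.

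In the comparison of A1cf KO with WT, no member passed the threshold (edgeR quasi-likelihood test, Benjamini-Hochberg adjusted p under 0.05), where 0.0473% of all 16910 genes did (0.0118% higher and 0.0355% lower). At an unadjusted p under 0.05, 8 members were higher in A1cf KO and 0 lower, beside 5.07% of all genes higher and 5.28% lower. The 8 were the peroxidasin gene Pxdn, the laminin chain Lama2, the protease inhibitor Timp1, fibrillin (Fbn1), fibronectin (Fn1), both chains of collagen I (Col1a1 and Col1a2) and the collagen VI chain Col6a3. The log2 fold change was above 0 for 40 members and below 0 for 10, with a median of 0.18 over members and -0.003 over all genes, of which 49.2% were above 0. Without A1cf KO 780 the median over members was 0.11. The sign differed from this fit in at least 1 alternative for 16 members, 0 of them with an unadjusted p under 0.05. With DESeq2, 2 members passed, Pxdn and Lama2, beside 1.11% of all genes.

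With the animal series as a covariate, 2 members passed the threshold by genotype, both higher in A1cf KO: Pxdn and Lama2, beside 0.142% of all genes (24 genes, with 0.0651% higher and 0.0769% lower). At an unadjusted p under 0.05, 17 members were higher and 0 lower, beside 6.53% of all genes higher and 6.39% lower. The log2 fold change was above 0 for 43 of 50 members, with a median of 0.25, against -0.001 for all genes. Within the animals below 700 alone (3 WT, 5 A1cf KO), 44 members had a log2 fold change above 0 with a median of 0.23, and Pxdn alone passed, beside 0.0402% of all genes. These fits share libraries, so they are not independent of each other.

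**Figure D2:**
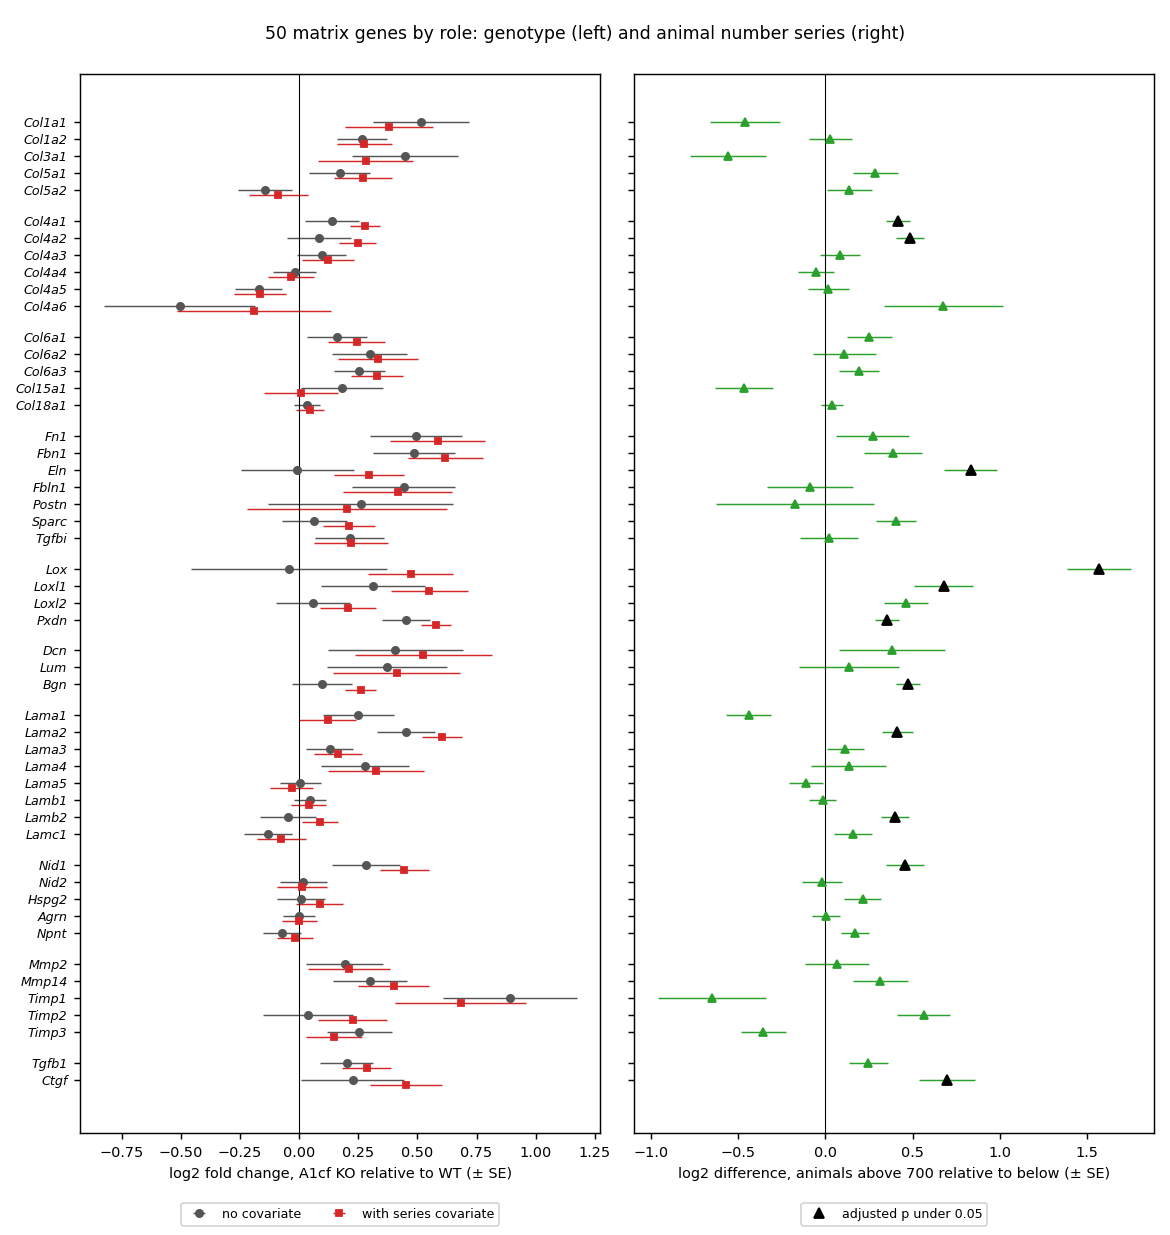
Log2 differences with SE (x axes) of the 50 genes grouped by role, for A1cf KO relative to WT without (grey circles) and with (red squares) the series covariate on the left, and for animals above relative to below 700 on the right (triangles, black where the adjusted p is under 0.05). On the left 40 circles and 43 squares lie right of 0, and on the right 11 genes are black, all right of 0.

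Pxdn encodes peroxidasin, the heme peroxidase that forms the sulfilimine cross-links between collagen IV molecules of basement membranes. Its WT libraries ran from 21.9 to 33.8 CPM with a median of 29.0 CPM, and its A1cf KO libraries from 36.1 to 45.9 CPM with a median of 38.7 CPM. Every A1cf KO library was thus above every WT library, and Pxdn was the only member whose genotypes did not overlap, as was the case for 0.84% of all genes (0.319% with A1cf KO above). The log2 fold change without the covariate was 0.45 (SE 0.10, edgeR adjusted p = 0.149). With it the value was 0.58 (SE 0.064, edgeR adjusted p = 9.7e-04), and within the animals below 700 it was 0.61 (edgeR adjusted p = 0.025). The adjusted p with the covariate stayed between 0.0019 and 0.0068 when any 1 library was left out, and was 0.014 without WT 777, A1cf KO 588 and A1cf KO 602.

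Pxdn occupies bases 29938036 to 30017658 of chromosome 12 (mm10, plus strand), with 9517 bases in 23 counted exon segments that overlap no other gene. Its counts ran from 917 to 2135 per library. The 250 bases before its start (RefSeq, GRCm38.p6, chr12:29937786-29938035, plus strand) are shown because Pxdn is the member on which the genotype comparison turns, with GC boxes (GGGCGG, either strand) and CCAAT boxes (CCAAT, either strand) in capitals:
Pxdn: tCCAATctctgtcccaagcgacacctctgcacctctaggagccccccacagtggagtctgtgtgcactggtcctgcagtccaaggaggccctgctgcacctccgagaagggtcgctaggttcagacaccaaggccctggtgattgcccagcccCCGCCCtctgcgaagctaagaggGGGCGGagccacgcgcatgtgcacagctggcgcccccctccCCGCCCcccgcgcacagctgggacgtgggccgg
This window is 68% G or C and holds 3 GC boxes, 1 CCAAT box and no TATAAA. Of the 33 members with a promoter in the table, 23 had a GC box in these 250 bases (69.7%, against 32.7% of 32817 windows of all genes), 11 had a CCAAT box (33.3% against 33.8%) and 2 had TATAAA (6.06% against 12.4%). A member counted if any of its windows matched, whereas the shares of all genes are over single windows and were not limited to the genes tested. These are matches of letters, and factor binding was not measured.

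Lama2 encodes the alpha 2 chain of laminin, best known from the basement membrane of muscle and also made in the mesangium. WT libraries ran from 9.62 to 14.9 CPM (median 11.4 CPM) and A1cf KO libraries from 13.5 to 19.03 CPM (median 16.2 CPM). Of the A1cf KO libraries, 4 were above all WT libraries, and the genotypes overlapped. The log2 fold change was 0.45 (SE 0.12, edgeR adjusted p = 0.236), and 0.60 with the series covariate (SE 0.085, edgeR adjusted p = 0.010). The call with the covariate was lost without WT 601 (log2 fold change 0.59, edgeR adjusted p = 0.066). Lama2 was at 12.7 to 14.9 CPM in the WT animals above 700 and at 9.62 to 10.1 CPM in those below, and A1cf KO 780 had the highest value of all, 19.03 CPM.

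The other 6 genes with an unadjusted p under 0.05 belong to the interstitial matrix or its turnover, and their genotypes overlapped. Fbn1, which forms the microfibrils of elastic fibres, ran from 6.34 to 11.9 CPM in WT (median 8.998 CPM) and from 8.68 to 15.6 CPM in A1cf KO (median 12.4 CPM), a log2 fold change of 0.49 (SE 0.17), and 0.62 with the covariate (SE 0.16). Fn1 ran from 11.2 to 25.0 CPM in WT (median 17.03 CPM) and from 16.7 to 34.8 CPM in A1cf KO (median 24.6 CPM), a log2 fold change of 0.50 (SE 0.19), and 0.59 with the covariate (SE 0.20). For both, A1cf KO 602 or 780 was the highest of all libraries and WT 573 or 601 the lowest. With WT 777, A1cf KO 588 and A1cf KO 602 left out, Fbn1 had a log2 fold change of 0.61 and Fn1 one of 0.49. Exons of the predicted gene Gm9913 overlap 20.1% of the counted bases of Fbn1.

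Col1a1 ran from 7.33 to 16.3 CPM in WT (median 9.24 CPM) and from 11.7 to 20.02 CPM in A1cf KO (median 13.8 CPM). Col1a2, which makes the second chain of collagen I, ran from 25.3 to 38.1 CPM in WT (median 34.6 CPM) and from 34.6 to 46.4 CPM in A1cf KO (median 39.9 CPM). Col6a3, a chain of the beaded filaments of collagen VI, ran from 9.30 to 13.8 CPM in WT (median 11.1 CPM) and from 11.4 to 15.2 CPM in A1cf KO (median 13.4 CPM). Of the A1cf KO libraries, 2 were above all WT libraries for Col1a1 and 3 for each of the other two. Their log2 fold changes were 0.51 (SE 0.20) for Col1a1, 0.27 (SE 0.11) for Col1a2 and 0.25 (SE 0.11) for Col6a3. With the covariate they were 0.38 (SE 0.19), 0.28 (SE 0.12) and 0.33 (SE 0.11), and Col1a1, with an unadjusted p of 0.060 in the edgeR fit, was no longer among the genes under 0.05. Within the animals below 700 that of Col1a1 was 0.32. Without WT 777, A1cf KO 588 and A1cf KO 602 they were 0.37, 0.30 and 0.24.

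Timp1, a secreted inhibitor of metalloproteinases that is low in healthy kidney, ran from 0.265 to 0.501 CPM in the WT libraries and from 0.406 to 1.21 CPM in those of A1cf KO. Its log2 fold change of 0.89 (SE 0.28) was the highest of the 50, but its counts were 8 to 43 per library. A1cf KO 602, the library with the most adipocyte transcripts, held the highest value. A1cf KO 588, with the fewest, was at 0.626 CPM, and WT 777, with an adipocyte marker sum of 312 CPM, was at 0.318 CPM. A relation of Timp1 to fat was not tested. With the covariate the log2 fold change was 0.68 (SE 0.28), and without WT 777, A1cf KO 588 and A1cf KO 602 it was 0.59. EdgeR adjusted p-values of these 6 genes ran from 0.314 for Timp1 to 0.437 for Col6a3.

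**Figure D3:**
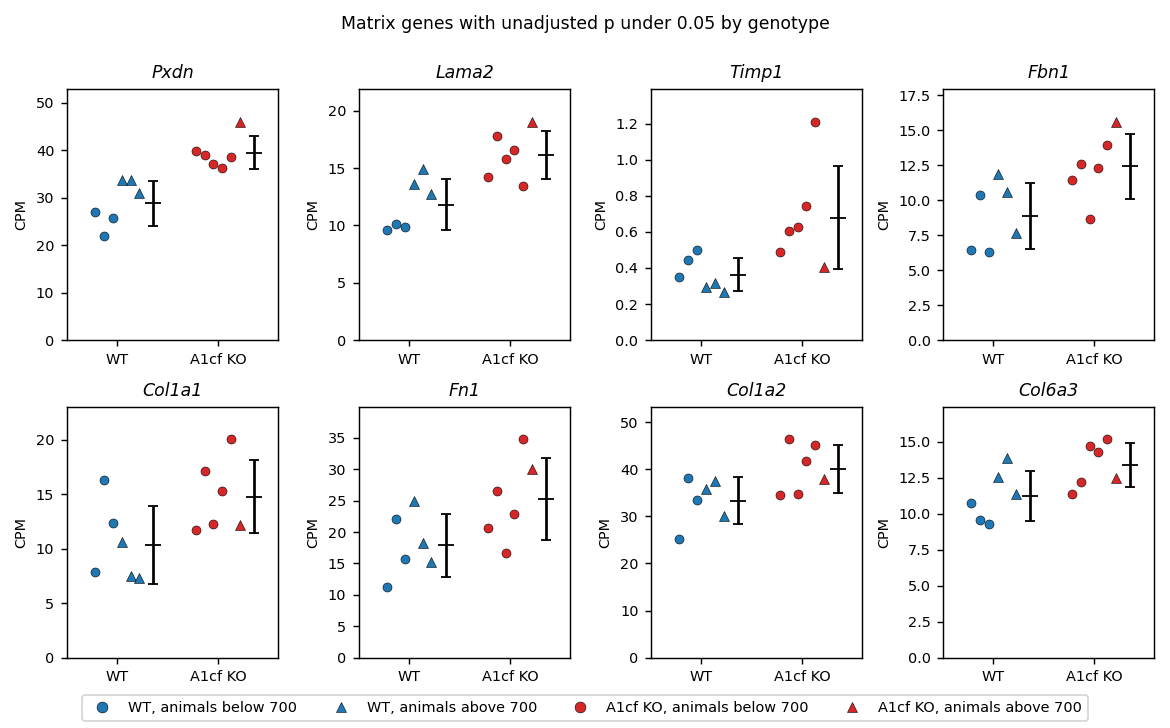
CPM (y axes, from 0) in each library of the 8 genes with an unadjusted p under 0.05 by genotype, for WT (blue) and A1cf KO (red), with circles for animals below and triangles for animals above 700, and the mean and SD in black. Only Pxdn has all A1cf KO libraries (36.1 to 45.9 CPM) above all WT libraries (21.9 to 33.8 CPM).

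For the chains of the filtering membrane, the log2 fold changes were 0.10 for Col4a3, -0.02 for Col4a4, -0.17 for Col4a5, 0.01 for Lama5, -0.05 for Lamb2 and -0.13 for Lamc1, with edgeR adjusted p between 0.570 and 0.989. With the covariate they were 0.12, -0.04, -0.16, -0.03, 0.09 and -0.07 in the same order. The ubiquitous collagen IV chains were at 0.14 for Col4a1 (SE 0.11) and 0.08 for Col4a2 (SE 0.13) without the covariate, and at 0.28 (SE 0.064) and 0.25 (SE 0.078) with it. Among the linkers, perlecan (Hspg2) was at 0.01, Nid2 at 0.02 and Nid1 at 0.28 (SE 0.14), and with the covariate at 0.09, 0.01 and 0.44 (SE 0.10). Col4a1, Col4a2 and Nid1 were among the 17 members with an unadjusted p under 0.05 in the fit with the covariate, where their edgeR adjusted p ran from 0.101 to 0.21, and were not among the 8 without it. SEs of the filtering membrane and linker values without the covariate ran from 0.087 to 0.14, so small differences could have gone without a call.

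The log2 fold changes of the small proteoglycans were 0.41 for Dcn, 0.37 for Lum and 0.10 for Bgn (SEs 0.28, 0.25 and 0.13), with 0 passed. With the covariate they were 0.52, 0.41 and 0.26, and Bgn (SE 0.065) had an unadjusted p under 0.05. Dcn had wide libraries: 32.2 to 79.9 CPM in WT and 27.03 to 108 CPM in A1cf KO, with the lowest in A1cf KO 588 and 103 and 108 CPM in A1cf KO 602 and 780. Without WT 777, A1cf KO 588 and A1cf KO 602 its log2 fold change was 0.60. The markers of fibroblasts had a median log2 fold change of 0.23, with 6 of 8 above 0, and summed levels of 63.2 to 99.3 CPM in WT and 62.5 to 117 CPM in A1cf KO. EdgeR called 0 of them and DESeq2 1. Markers of mesangial cells, pericytes and smooth muscle had a median of 0.17 (9 of 10 above 0), podocytes 0.08 (8 of 10) and endothelium 0.02 (5 of 10), with 0 called. With the series covariate these medians were 0.30 for fibroblasts (8 of 8 above 0), 0.26 (9 of 10), 0.21 (10 of 10) and 0.28 (10 of 10). The median over all genes was then -0.001. Without the covariate, macrophage markers had a median of 0.25, with 7 of 8 above 0 and 0 called, and sums of 116 to 173 CPM in WT and 132 to 186 CPM in A1cf KO. Adipocyte marker sums ran from 16.3 to 312 CPM in WT (median 44.0 CPM) and from 0.834 to 418 CPM in A1cf KO (median 114 CPM), with 5 of 6 tested markers above 0 and 0 called. The median log2 fold change of the adipocyte markers was 0.84, and 1.49 with the series covariate (5 of 6 above 0). Sums of 5 loop of Henle markers did not overlap between genotypes, at 4304 to 6552 CPM in WT and 3244 to 4185 CPM in A1cf KO. Of all genes taken singly, 0.84% did not overlap. The log2 fold changes were below 0 for 5 of 5 (median -0.47). At an unadjusted p under 0.05, 4 of them were lower, beside 5.28% of all genes. EdgeR called 0 and DESeq2 2, beside 0.0473% and 1.11% of all genes. With the series covariate the median over the loop of Henle markers was -0.39. Umod alone was at 2721 to 3656 CPM in WT and 1876 to 2459 CPM in A1cf KO. The part of any of these cells in the matrix differences was not tested. Without WT 777, A1cf KO 588 and A1cf KO 602 the members' median log2 fold change was 0.24 and 0 members passed.

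The animal series was tested with genotype as covariate. Above 700, 11 members were higher and 0 lower at an adjusted p under 0.05 (edgeR), beside 2.9% of all genes called (2.1% higher and 0.798% lower). The 11 were the cross-linking enzymes Lox, Loxl1 and Pxdn, the elastin gene Eln, the collagen IV chains Col4a1 and Col4a2, the laminin chains Lama2 and Lamb2, nidogen 1 (Nid1), biglycan (Bgn) and Ctgf. At an unadjusted p, 18 members were higher and 5 lower, beside 9.18% of all genes in each direction. With DESeq2, 15 members passed, 1 of them (Lama1) lower, beside 7.17% of all genes (4.44% higher and 2.73% lower). The median over members was 0.16 and over all genes -0.006. Only 1 A1cf KO animal was above 700, so this comparison rests mainly on the WT animals and on A1cf KO 780.

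Lox, lysyl oxidase, cross-links collagen and elastin. Below 700 it was at 3.15 to 6.07 CPM (median 4.19 CPM, 8 libraries) and above 700 at 7.51, 10.6, 12.4 and 16.5 CPM in WT 778, WT 777, WT 776 and A1cf KO 780. The series did not overlap, and the log2 difference was 1.57 (SE 0.18, edgeR adjusted p = 3.1e-04), the largest of the 50. Eln, its substrate, was at 4.32 to 8.41 CPM below 700 (median 5.84 CPM) and at 8.89 to 11.8 CPM above (median 10.2 CPM), again without overlap, with a log2 difference of 0.83 (SE 0.15, edgeR adjusted p = 0.0098). Loxl1, a lysyl oxidase needed for elastic fibres, was at 7.76 to 15.5 CPM below and 9.78 to 18.7 CPM above 700 (log2 difference 0.68, SE 0.17, edgeR adjusted p = 0.046). The Loxl1 series overlapped, and its call was lost on leaving out any of 8 libraries, while the log2 difference stayed between 0.54 and 0.78 over all 12 libraries left out.

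Bgn, a small proteoglycan that binds collagen and growth factors, was at 107 to 148 CPM below 700 (median 129 CPM) and 151 to 194 CPM above (median 163 CPM), without overlap. Its log2 difference was 0.47 (SE 0.068, edgeR adjusted p = 0.0016). Ctgf, a matricellular protein induced by TGF-beta and by mechanical load, was at 37.8 to 81.6 CPM below and 70.0 to 120 CPM above 700, a log2 difference of 0.70 (SE 0.16, edgeR adjusted p = 0.029). A1cf KO 602 had the lowest Ctgf and A1cf KO 780 the highest, and exons of the predicted gene Gm15270 overlap 23.2% of its counted bases. In all, 3 members (Lox, Eln and Bgn) had every library above 700 higher than every library below, beside 1.86% of all genes.

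The ubiquitous collagen IV chains were higher above 700 and the glomerular chains were not called. Col4a1 was at 136 to 182 CPM below and 175 to 243 CPM above 700 (log2 difference 0.42, SE 0.069, edgeR adjusted p = 0.0037), and Col4a2 at 102 to 146 CPM below and 143 to 194 CPM above (0.48, SE 0.081, edgeR adjusted p = 0.0049). For both genes the series overlapped. The log2 differences were 0.09 for Col4a3, -0.06 for Col4a4 and 0.02 for Col4a5, with SEs of 0.10 to 0.12. The difference between the chains was not itself tested.

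Of the other basement membrane genes, Lamb2, the beta chain of the glomerular laminin, was at 51.0 to 66.5 CPM below and 63.8 to 81.7 CPM above 700 (log2 difference 0.40, edgeR adjusted p = 0.015). Nid1, which links laminin to collagen IV, was at 21.5 to 38.0 CPM below and 29.0 to 45.9 CPM above (0.46, edgeR adjusted p = 0.037). Lama2 (0.41, edgeR adjusted p = 0.024) and Pxdn (0.35, edgeR adjusted p = 0.011) were called by series too. For both Lama2 and Pxdn, all A1cf KO libraries lay above all WT libraries within the animals below 700. The same split below 700 held for Col4a1, Col6a3, Loxl1 and Tgfb1, so it was not particular to the called genes. The share of all genes split in this way, with 3 WT and 5 A1cf KO libraries, was not counted. A1cf KO 780 lay above the 3 WT libraries above 700 for Lama2 and Pxdn, and also for other members such as Col4a1, Loxl1 and Tgfb1.

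The 5 members lower above 700 at an unadjusted p were Col1a1 (log2 difference -0.46), Col3a1 (-0.56), Col15a1 (-0.47), Lama1 (-0.44) and Timp3 (-0.35). None passed the adjusted threshold in this fit (edgeR adjusted p from 0.088 for Lama1 to 0.243 for Col1a1). Lama1 was called lower with DESeq2 (DESeq2 adjusted p = 0.028) and without the filter on low counts (edgeR adjusted p = 0.046). Col3a1, the fibrillar collagen of reticular fibres, ran from 13.9 to 35.8 CPM below and from 10.1 to 17.4 CPM above 700. Lama1, the laminin chain of tubular basement membranes, ran from 28.1 to 41.7 CPM below and from 20.3 to 30.6 CPM above. Timp3 ran from 787 to 1306 CPM below and from 659 to 886 CPM above. In each of the 3 the series overlapped, with the lower end above 700.

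Other members differed by series at an unadjusted p without passing in the same edgeR fit. Timp2, an inhibitor that also takes part in activating Mmp2, ran from 30.6 to 55.4 CPM below and from 50.3 to 73.5 CPM above 700 (log2 difference 0.56, edgeR adjusted p = 0.064). Sparc, a collagen-binding matricellular protein, ran from 63.8 to 105 CPM below and from 87.3 to 116 CPM above (0.41, edgeR adjusted p = 0.074). Loxl2, a further lysyl oxidase, ran from 4.08 to 5.57 CPM below and from 4.75 to 7.35 CPM above (0.46, edgeR adjusted p = 0.067). All 3 lay higher above 700 with overlap. With DESeq2 Timp2, Sparc and Loxl2 passed (DESeq2 adjusted p 0.010, 0.017 and 0.012). Without the filter on low counts, Timp2 and Sparc passed in edgeR too (edgeR adjusted p 0.021 and 0.037). The log2 differences of Fbn1 (0.39), Col5a1 (0.28), Tgfb1 (0.25) and Npnt (0.17) had edgeR adjusted p between 0.237 and 0.271.

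Tgfb1 encodes the cytokine that induces many matrix genes, and Mmp14 a membrane-bound collagenase. By genotype with the covariate, the log2 fold change was 0.29 for Tgfb1 (SE 0.10), 0.40 for Mmp14 (SE 0.15), 0.45 for Ctgf (SE 0.15), 0.47 for Lox (SE 0.18, against -0.04 without the covariate), 0.55 for Loxl1 (SE 0.16) and 0.27 for Col5a1 (SE 0.12), all with an unadjusted p under 0.05 and none past the adjusted threshold. Tgfb1 ran from 5.67 to 7.75 CPM in WT and from 6.69 to 9.27 CPM in A1cf KO, and Mmp14 from 6.22 to 10.7 CPM and from 7.78 to 14.2 CPM. Both overlapped between genotypes. The remaining members had an unadjusted p over 0.05 by genotype, with and without the covariate, and by series. Of these, the log2 fold changes by genotype without the covariate were -0.14 for the collagen V chain Col5a2, 0.16 and 0.30 for the collagen VI chains Col6a1 and Col6a2, and 0.44 for fibulin 1 (Fbln1), which binds elastic fibres. They were 0.13 for Lama3, 0.28 for Lama4 and 0.05 for Lamb1 among the laminin chains, 0.19 for the gelatinase Mmp2, 0.26 for Postn and 0.21 for Tgfbi, both secreted matrix proteins, and -0.50 for Col4a6 (SE 0.32), where WT 777 stood apart.

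**Figure D4:**
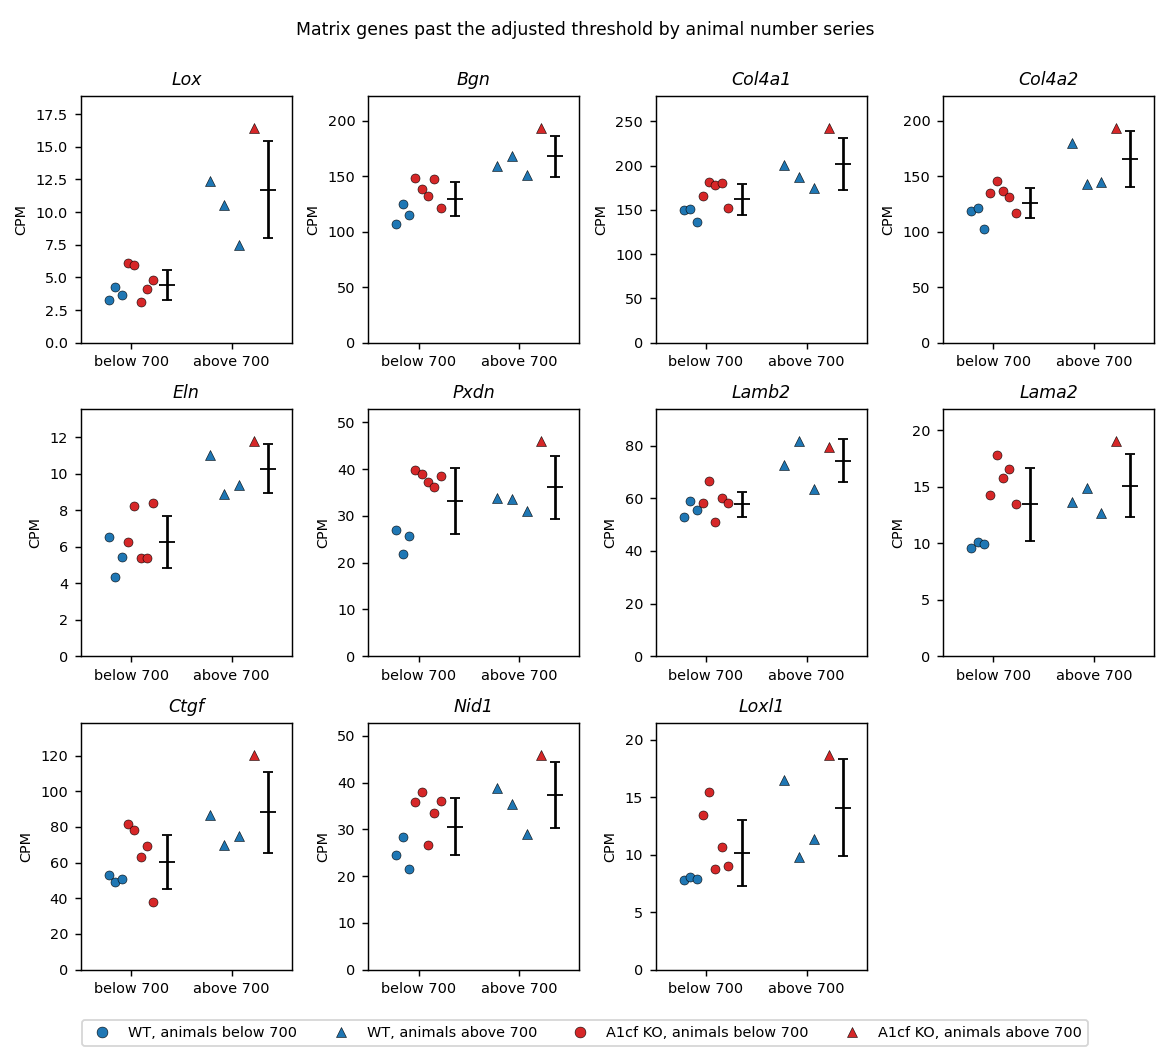
CPM (y axes, from 0) in each library of the 11 genes past the adjusted threshold by animal series, for animals numbered below 700 (circles) and above 700 (triangles), coloured by genotype (WT blue, A1cf KO red), with the mean and SD in black. Lox, Eln and Bgn show no overlap between the series, and A1cf KO 780 is the highest library for 10 of the 11, with WT 777 highest for Lamb2.

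Without A1cf KO 780, 3 members passed (Lox, Pxdn and Bgn), and the count over all genes was 140 against 490. These 3 were also the only ones called in each of the 12 fits that left out a library. The log2 differences of the 8 others without A1cf KO 780 were 0.37 for Col4a1, 0.45 for Col4a2, 0.84 for Eln, 0.66 for Loxl1, 0.48 for Lama2, 0.38 for Lamb2, 0.47 for Nid1 and 0.60 for Ctgf, against 0.40 to 0.83 in the full set. Between 7 and 13 passed when any other library was left out. Within the 6 WT animals all 11 had log2 differences above 0, and 2 passed, Lox (1.44, edgeR adjusted p = 0.019) and Ctgf (0.60, edgeR adjusted p = 0.026), beside 0.785% of all genes (0.656% higher). Without WT 777, A1cf KO 588 and A1cf KO 602, 7 passed.

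Markers of several cell types moved with the series, beside 2.9% of all genes called. Of 10 endothelial markers 7 were called higher above 700, with sums of 427 to 493 CPM above and 243 to 404 CPM below. Podocyte markers had 3 of 10 called higher, with sums of 274 to 405 CPM above and 237 to 324 CPM below, and markers of mesangial cells, pericytes and smooth muscle had 3 of 10 called higher, with sums of 229 to 309 CPM above and 177 to 261 CPM below. Proximal tubule marker sums were 7589 to 8853 CPM above and 8837 to 11995 CPM below, with 0 of 7 called and 4 lower at an unadjusted p. None of these lists had a marker sum near 0, and their part in the matrix differences was not tested.

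The collagen IV genes lie in head-to-head pairs on 3 chromosomes, each pair transcribed in opposite directions from neighbouring starts. The annotated starts of Col4a2 (plus strand, 11312805) and Col4a1 (minus strand, 11312826) on chromosome 8 overlap by 22 bases, those of Col4a3 and Col4a4 on chromosome 1 are 71 bases apart, and those of Col4a5 and Col4a6 on the X chromosome are 1308 bases apart. The stretch where Col4a1 and Col4a2 overlap (GRCm38.p6, chr8:11312805-11312826, plus strand) is shown because both genes start inside it, with a GC box in capitals:
Col4a1 and Col4a2: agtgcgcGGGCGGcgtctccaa
These 22 bases are the only counted exon bases that this pair shares, so its levels are otherwise counted from separate reads.

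Across the 12 libraries the log2 CPM of the closest pair, both called higher above 700, moved together. Members that are not neighbours were not correlated, so whether neighbours move together more than other members was not tested. For Col4a1 with Col4a2, Pearson's r was 0.96 and Spearman's rho 0.90 (n = 12, permutation p adjusted over 3 pairs 6.0e-05 and 7.5e-04). It was 0.90 without the 2 libraries farthest from the median of Col4a1 (A1cf KO 780 and WT 601), 0.97 within WT, 0.97 within A1cf KO and 0.94 within the 8 animals below 700. Within A1cf KO it rested on A1cf KO 780 and 602, without which r was 0.36.

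For Col4a3 with Col4a4, r was 0.82 and rho 0.83 (n = 12, adjusted permutation p 0.0010 and 0.0021), and r was 0.83 without A1cf KO 574 and 780. It was 0.87 within WT, 0.88 within A1cf KO and 0.83 below 700, but within WT r was -0.22 without WT 777 and 573. Below 700 r was 0.37 without A1cf KO 574 and WT 573, and within A1cf KO it was 0.65 without A1cf KO 574 and 780. For Col4a5 with Col4a6, r was 0.84 (adjusted permutation p 0.024) and rho 0.45 (adjusted permutation p 0.15), with r = 0.62 without WT 777 and WT 573. This relation rested on WT 777, where Col4a6 was at 9.82 CPM against 2.23 to 3.26 CPM elsewhere: without it r was 0.16.

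**Figure D5:**
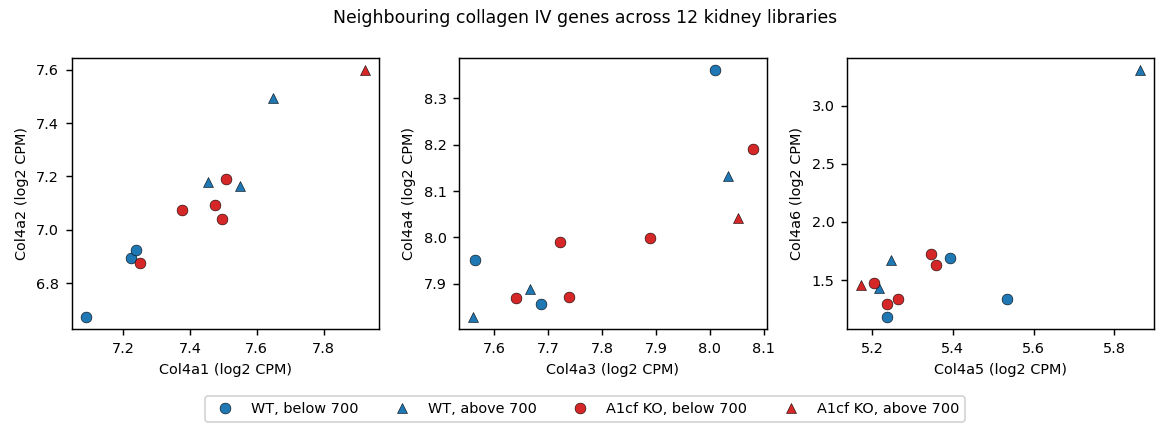
Log2 CPM of the first gene (x axis) and second gene (y axis) of each neighbouring collagen IV pair in 12 libraries, for WT (blue) and A1cf KO (red), with circles for animals below and triangles for animals above 700. The points of Col4a1 and Col4a2 lie along a line (r = 0.96), whereas those of Col4a5 and Col4a6 form a group with WT 777 far to the upper right.

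Other genes of the matrix were examined as lists beside the members: further collagens, laminins, proteoglycans, elastic fibre genes, collagen-processing enzymes, proteases, matrix receptors and the TGF-beta pathway. Of these, 173 were in the count table, of which 155 were tested, and 0 passed by genotype without the covariate (edgeR). DESeq2 called 3, beside 1.11% of all genes. At an unadjusted p under 0.05 (edgeR), 19 were higher and 1 lower, beside 5.07% of all genes higher and 5.28% lower. The median log2 fold change was 0.06, against -0.003 for all genes. By series 15 passed (9.68%, beside 2.9% of all genes), all higher above 700, with 35 higher and 7 lower at an unadjusted p, where 9.18% of all genes lay in each direction, and a median of 0.10. They were the transmembrane collagen Col13a1 (1.55), the basement membrane genes Tinagl1 (0.72) and Lamc3 (0.50), the proteoglycans Srgn (0.90), Aspn (1.05) and Omd (0.85), Sparcl1 (0.49), the proteases Plat (0.83) and Adamts9 (0.35), the receptors Itgb3 (1.24), Sdc3 (0.37), Itga3 (0.42) and Itga9 (0.39), and the TGF-beta receptors Eng (0.52) and Tgfbr1 (0.26), with log2 differences in parentheses. Of the collagen-folding and processing enzymes, 0 of 19 tested passed by genotype or by series.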

How the data were processed

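Per the labels' protocols, the miRNeasy kit gave RNA of frozen kidneys, and sequencing libraries came from an Illumina TruSeq kit. The deposited values are counts per gene name in 12 libraries. They were made by the authors with featureCounts 1.5.0-p2 on exons of GENCODE M8, setting no strand or pair option, per the file headers. STAR, DESeq2 and the build mm10 are named in the submitters' processing notes. Of counts from 1 to 19, 74.6% were even, against 54.1% from 100 to 999, and whether mates were counted separately was not tested. The header's exon length per gene, deposited with the counts, was used for RPKM.

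Counts were tested in edgeR 4.0.16 (R 4.3.3) with filterByExpr by genotype, TMM scaling, the quasi-likelihood F test and Benjamini-Hochberg adjustment over all 16910 genes, at a threshold of 0.05. The fits were tested on simulated data. A single gene without an adjusted call is called higher or lower only where its unadjusted p is under 0.05, and other log2 values are given as values. Log2 CPM used a prior count of 2. Pairs of genes were correlated with 100000 permutations. Alternatives were other scalings and filters, DESeq2 1.42.0, limma-voom (limma 3.58.1), 1 surrogate variable (sva 3.50.0), the series covariate, 1 series only, and each library left out. Added after seeing the data were counts halved, mitochondrial genes left out, and 3 libraries at the extremes of adipocyte transcripts left out. The labels give animal numbers that pair no samples across genotypes.

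The members and lists were chosen with earlier results of these data known. Members were named by role, with values for those with an unadjusted p under 0.05 by genotype or series or the highest level of a role, and, of the companion lists, at most 4 genes a list past the threshold.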

Additional observations from a re-analysis of the deposited data

Results flagged for a closer look

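Among 100 groups of 6 libraries (50 genes in each genotype), 6 held 1 library far from the others. This is near the share that chance gives, about 1 in 20, so the 6 are given as values only. In A1cf KO 780, the one A1cf KO animal above 700, Col4a1 was at 243 CPM against 152 to 182 CPM in the other A1cf KO libraries. In the same library Lox was at 16.5 CPM against 3.15 to 6.07 CPM, and Bgn at 194 CPM against 121 to 148 CPM. In WT 777, the library with the most urothelial transcripts, Col4a6 was at 9.82 CPM against 2.23 to 3.19 CPM in the other WT libraries, and perlecan (Hspg2) at 91.3 CPM against 57.4 to 63.9 CPM. In A1cf KO 602, the library with the most adipocyte transcripts, periostin (Postn) was at 14.8 CPM against 3.295 to 6.80 CPM. Whether these values go with the urothelial or adipocyte transcripts of a library was not tested.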

How the results depend on the processing

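By genotype, 8 genes and 0 members passed without a covariate. DESeq2 gave 170 genes and 2 members, the series covariate 24 and 2, 1 surrogate variable 24 and 1, and the animals below 700 gave 1 member. With each library left out, 6 to 12 genes and 0 members passed. Of 1199 values of single members by genotype under the alternatives, 6 crossed to the called side, and 69 (of 16 members, none with an unadjusted p under 0.05 in the fit without covariate) changed sign. The members' median ran from 0.11 (without A1cf KO 780) to 0.20 on leaving out each library. With the series covariate, leaving out each library gave 8 to 43 genes and 1 to 3 members. Without A1cf KO 602, Ctgf passed too (log2 fold change 0.556, edgeR adjusted p = 0.00942), and without WT 777, A1cf KO 588 and A1cf KO 602 the calls were 42 genes and 3 members, Ctgf among them. By series (490 genes, 11 members), DESeq2 gave 1094 genes, the WT libraries alone 121 genes and 2 members, and the fit without WT 777, A1cf KO 588 and A1cf KO 602 gave 274 genes and 7 members. Each library left out gave 140 to 696 genes and 3 to 13 members, lowest without A1cf KO 780. Of 1049 single values by series under the alternatives, 42 lost the call and 10 gained one. The r of Col4a5 with Col4a6 ran from 0.16 (without WT 777) to 0.96. Scaling, filters, halved counts, limma-voom and mitochondrial genes moved no count of calls by over 1.5 times. Why the counts moved was not tested, and the part of fewer samples was not tested either. No paired analysis was possible because the animal numbers are not shared between genotypes. Timp1 had counts as low as 8 per library.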
